A study of Mus musculus with 2 samples.

Results

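The genes described here encode the SET domain and DOT1L-type enzymes that add methyl groups to histone lysines, and the demethylases of the JmjC and LSD families that remove them. Members were the protein-coding genes named Kmt2 or Kmt5, Kdm1 to Kdm8, Setd, Setdb, Suv39h, Suv420h, Nsd1, Whsc1 (called Nsd2 in the annotation used) and Dot1l. Kdm1a and Kdm5d were left out. This gave 39 of 21474 protein-coding genes, with symbols from GENCODE M21. The cells were G1E-ER4, a mouse erythroid line without its own functional Gata1 that carries Gata1 fused to an estrogen receptor domain. Both polyA RNA-seq libraries came from cells held in 17beta-estradiol at 10 nM for 7 hours, so they form 1 group, and no untreated sample was analysed here. The libraries were labelled as different biological replicates. Both nevertheless cited 1 biological sample record, so their spread may still be technical. As a line, G1E-ER4 is a single immortalized source, and its Gata1 activity comes from the introduced fusion.

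Histone lysine methylation is read by its position. H3K4 methylation marks promoters and enhancers, H3K36 and H3K79 methylation mark transcribed gene bodies, and H3K9 and H4K20 methylation are tied to silent and compacted chromatin. Each position has its own methyltransferases, and most methylated lysines have demethylases that reverse the mark. Red cell precursors condense their chromatin as they mature, and enzymes of H4K20 methylation are known to matter for that process in mouse.

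The libraries held 59610969 and 44689405 expected counts in replicates 1 and 2. Erythroid markers were detected in 13 of 13 cases, and their summed TPM (a transcript level corrected for length and library size) was 26662 in replicate 1 and 18380 in replicate 2. Of 27 markers of other cell types 5 were detected, 11 had 0 counts in both libraries, and their summed TPM was 169 and 163. The part of other cells in the levels below was not tested. Detection here means a TPM no lower than 1 in each library.

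Nearly the whole family was expressed. Of 39 members 37 were detected, which is 94.9%, where 38.3% of all protein-coding genes were. The median over members of the mean TPM was 15.9, beside 20.8 over the 8219 detected protein-coding genes and 0.03 over all protein-coding genes. Mean TPM reached 10 in 24 members and 100 in 7 members. Reads of the members made up 0.846% of the counts in replicate 1 and 0.968% in replicate 2. In a bulk library, fewer cells that express a gene and less of its RNA per cell cannot be told apart. The members are long genes, with a median longest transcript of 6449 bases beside 3113 bases for detected protein-coding genes.

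**Figure D1:**
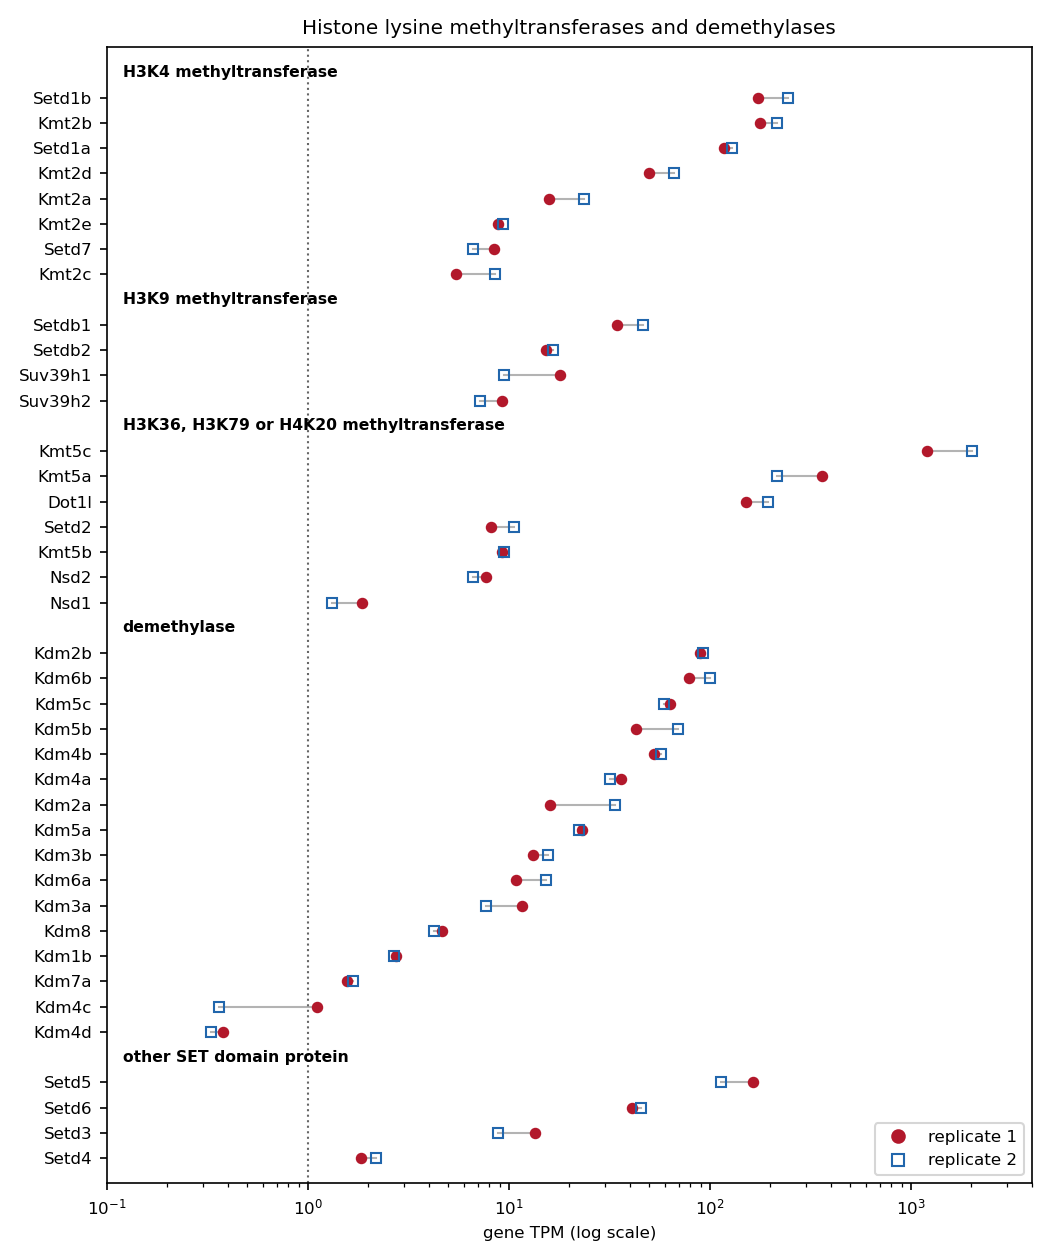
Gene TPM (log scale) of the 39 members, grouped by role and ordered by mean within each role, with filled circles for replicate 1 and open squares for replicate 2. The dotted line is the detection level of 1 TPM, and Kmt5c, at 1206 and 2003 TPM, stands above every other member.

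One H4K20 methyltransferase dominated the family. Kmt5c (Suv420h2, ENSMUSG00000059851.11, chr7:4740115-4747514, plus strand, GRCm38), which makes the di- and trimethyl marks of H4K20, had 1206 TPM in replicate 1 and 2003 TPM in replicate 2. Its mean TPM was 1605 ± 564 (SD, n = 2). It ranked 76 among all protein-coding genes by mean TPM, inside the top 0.354%. Its counts were 93205 and 95098, the highest of any member over both libraries. Its TPM was higher in replicate 2, and its transcript makeup also differed between the libraries, as given further on. The role that holds it, with 7 methyltransferases of H3K36, H3K79 and H4K20, took 57.2% and 62.4% of the summed TPM of all members. By counts it took 31.4% and 32.0%, less than the H3K4 methyltransferases.

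The RefSeq promoter window of Kmt5c is shown because it belongs to the most abundant member. It covers 250 bases before and 50 after the annotated start on GRCm38.p6, chr7:4739877-4740176, plus strand. Capitals mark CCAAT on either strand.
Kmt5c promoter: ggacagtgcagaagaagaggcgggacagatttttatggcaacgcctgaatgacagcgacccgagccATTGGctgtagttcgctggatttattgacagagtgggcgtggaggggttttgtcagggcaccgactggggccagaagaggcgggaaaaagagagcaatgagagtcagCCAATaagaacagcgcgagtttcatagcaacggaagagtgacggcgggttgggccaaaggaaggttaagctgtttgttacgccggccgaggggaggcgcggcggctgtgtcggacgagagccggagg
The window held CCAAT in 2 places and 22 CpG dinucleotides. It held no AGATAA or TGATAA, which are forms of the GATA motif, no CACCC, the core of the motif that erythroid KLF factors bind, and no TATAAA on either strand. Overlapping matches were all counted. Of the 32851 RefSeq promoter windows of this length 37.4% held CCAAT, 11.2% AGATAA, 9.05% TGATAA, 57.5% CACCC and 13.6% TATAAA. RefSeq gave 40 windows for 29 members, of which 17 held CCAAT, 4 AGATAA, 1 TGATAA, 26 CACCC and 0 TATAAA. The median CpG count was 27.5 in the members' windows and 7 in all windows.

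The other enzymes of this role were uneven. Kmt5a (Setd8), which adds the first methyl group to H4K20 and is required for erythroid development in mouse, had 361 and 215 TPM in replicates 1 and 2, a mean of 288 ± 103 (SD, n = 2), higher in replicate 1. Dot1l, the H3K79 methyltransferase, had 151 and 195 TPM, a mean of 173 ± 31.4. Kmt5b (Suv420h1), the paralog of Kmt5c with the same substrate, had only 9.23 and 9.5 TPM. Kmt5c over Kmt5b was 131 and 211 by TPM, and 90.1 and 163 by counts, so the gap within the pair held by both measures and in both libraries. Among H3K36 enzymes Setd2, which makes the trimethyl mark, averaged 9.41 ± 1.78 TPM and Nsd2 7.18 ± 0.728. Nsd1, also an H3K36 methyltransferase, was the lowest of the role, at 1.87 and 1.32 TPM. In the order of this role, Setd2 and Kmt5b overlapped between libraries, and none of the other 5 pairs of neighbours did.

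Genes grouped as H3K4 methyltransferases were all detected, 8 of 8. They held 45.3% and 47.1% of the members' counts in replicates 1 and 2, the largest share of any role by counts. Kmt2e was placed in this role by its family name, and enzyme activity was not measured. Setd1b, a catalytic subunit of a COMPASS complex, led with 174 and 245 TPM, a mean of 209 ± 50.2 (SD, n = 2). Kmt2b followed with 177 and 215 TPM, and the values of these 2 genes overlapped. Setd1a, the other SET1 enzyme, averaged 123 ± 7.81 TPM, and Kmt2d, which acts at enhancers, 57.9 ± 11.5. Kmt2a (Mll1), known for Hox gene control, averaged 19.8 ± 5.62, Kmt2e 9.10 ± 0.410 and Setd7, which also methylates proteins other than histones, 7.54 ± 1.32. Kmt2c, the enhancer paralog of Kmt2d, was lowest at 5.48 and 8.58 TPM, overlapping Setd7.

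Within each H3K4 pair 1 paralog was the higher in both libraries. Setd1b over Setd1a was 1.48 and 1.91 by TPM in replicates 1 and 2. Kmt2b over Kmt2a was 11.2 and 9.08 by TPM, and 8.52 and 9.34 by counts. Kmt2d over Kmt2c was 9.07 and 7.69 by TPM but 26.2 and 36.9 by counts. The short coding transcript Kmt2c-206 (2646 bases, 16.6% of the longest coding sequence) held 30.1% and 60.8% of Kmt2c TPM, while the full-length Kmt2c-201 held 19.9% and 8.61%.

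H3K9 methyltransferases stood lower than those of H3K4, with a median of mean TPM of 14.8 beside 38.8. The median of the role that holds Kmt5c was lower still, at 9.41. Setdb1, which works with the KAP1 corepressor Trim28, had 34.7 and 46.5 TPM, a mean of 40.6 ± 8.32 (SD, n = 2), and led its role. Setdb2 averaged 15.9 ± 0.849. The heterochromatin enzymes Suv39h1 and Suv39h2 averaged 13.8 ± 6.07 and 8.20 ± 1.42, with Suv39h2 lowest of the role by TPM at 9.2 and 7.19. By counts Setdb2 was lowest instead, with 340 and 207 beside 970 and 524 for Suv39h2. Suv39h1 had 18.04 and 9.46 TPM, and overlapped Setdb2. Suv39h1 over Suv39h2 was 1.96 and 1.32 by TPM. Setdb1 over Setdb2 was 2.27 and 2.81 by TPM but 23.2 and 35.6 by counts. Nearly all of the Setdb2 TPM lay on a transcript of 410 bases, for which a few counts make a high TPM.

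Of 4 other SET domain proteins, whose histone activity is less settled, Setd5 led at 164 and 114 TPM, a mean of 139 ± 35.8 (SD, n = 2). Setd6 averaged 43.4 ± 3.23 and Setd3, an actin histidine methyltransferase, 11.2 ± 3.31. Setd4 was lowest at 1.85 and 2.19 TPM. No neighbours in that order overlapped.

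Demethylases numbered 16, of which 14 were detected. Kdm2b, which removes H3K36 methylation and carries a CpG-binding zinc finger, had 89.6 and 92.8 TPM, a mean of 91.2 ± 2.25 (SD, n = 2). Kdm6b (Jmjd3), an H3K27 demethylase, averaged 89.7 ± 15.6, and its 78.6 and 101 TPM spanned the Kdm2b values. Next came the H3K4 demethylases Kdm5c at 61.3 (63.4 and 59.2 in replicates 1 and 2) and Kdm5b at 56.0 ± 18.8, and the H3K9 and H3K36 demethylases Kdm4b at 55.0 ± 3.10 and Kdm4a at 34.1 ± 2.96. Kdm2a averaged 24.9 ± 12.4 and Kdm5a 22.7 ± 0.601. Among the H3K9 demethylases Kdm3b averaged 14.4 ± 1.78 and Kdm3a 9.69 ± 2.79, and the X-linked H3K27 demethylase Kdm6a (Utx) 13.1 ± 3.17. Kdm8 (4.44 ± 0.283), Kdm1b (Lsd2, 2.72 ± 0.0354) and Kdm7a (1.61 ± 0.0778) were detected at low levels. Of 15 pairs of neighbours in the demethylase order 8 overlapped between libraries.

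The undetected members belonged to the Kdm4 family. Kdm4c had 1.11 TPM in replicate 1 and 0.36 TPM in replicate 2, from 207 and 51 counts. Kdm4d, known mainly from testis, had 0.38 and 0.33 TPM, from 41 and 23 counts. Both thus had reads in both libraries. Kdm4b over Kdm4c was 47.6 and 159 by TPM, Kdm4a over Kdm4b 0.685 and 0.559, and Kdm4c over Kdm4d 2.92 and 1.09.

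The remaining demethylase pairs differed in how firm their order was. Kdm6b over Kdm6a was 7.22 and 6.55 by TPM in replicates 1 and 2, and 10.1 and 9.09 by counts. Kdm2a over Kdm2b was 0.180 and 0.363 by TPM, and 0.407 and 0.423 by counts. Kdm2b was also higher on transcripts annotated as protein coding, at 59.05 and 49.15 TPM beside 15.62 and 33.33 for Kdm2a. The order turned on transcripts with nearly the whole coding sequence, as defined further on. There Kdm2a had 15.09 and 15.69 TPM in replicates 1 and 2, and Kdm2b had 1.91 and 0. Kdm3a over Kdm3b was 0.885 and 0.492 by TPM. Kdm5b over Kdm5c was 0.674 in replicate 1 and 1.17 in replicate 2 by gene TPM, so the libraries disagreed on which was higher, while by counts it was 0.461 and 0.885. On transcripts annotated as protein coding Kdm5c was higher in both libraries, at 63.4 and 59.2 TPM beside 3.17 and 3.97 for Kdm5b. By gene TPM Kdm5a was below Kdm5b and Kdm5c, with Kdm5a over Kdm5b at 0.542 and 0.322 and Kdm5c over Kdm5a at 2.74 and 2.65.

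**Figure D2:**
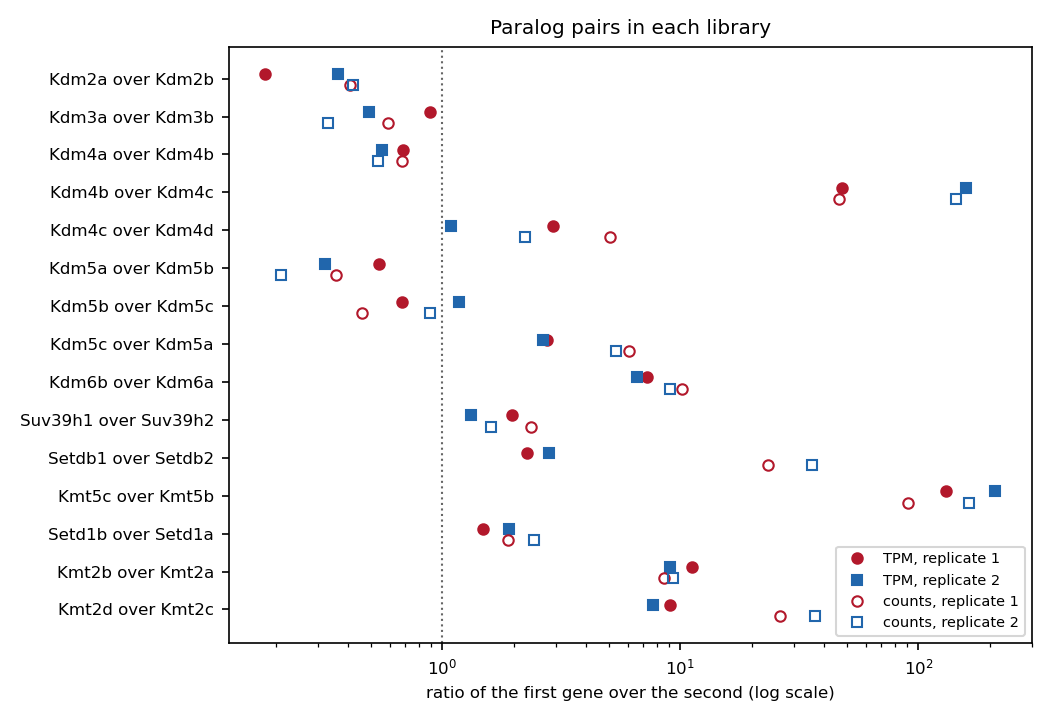
Ratio of the first gene over the second (log scale) for 15 pairs of paralogs, by TPM (filled) and by counts (open), with circles for replicate 1 and squares for replicate 2. Kmt5c over Kmt5b lies at 131 and 211 by TPM, and Setdb1 over Setdb2 lies at 2.27 and 2.81 by TPM and at 23.2 and 35.6 by counts.

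Gene TPM did not always reflect transcripts annotated as protein coding. In 8 of 39 members under 50% of TPM lay on coding transcripts in at least 1 library, which is 20.5%, beside 23.3% of detected protein-coding genes, so the share among members was near that of other genes. By TPM these members were Kdm5a, Kdm5b, Kdm6a, Setd5 and Setdb2 in both libraries, and Kmt2a, Kmt5c and Suv39h1 in 1 library each. By expected counts the number was also 8, beside 15.9% of detected genes, but Setd4 (16.9% and 34.3% in replicates 1 and 2) was among them and Kmt2a (80.1% and 77.3%) was not. A Setd4 transcript of 1826 bases that M21 lacks held 48.1% and 16.4% of Setd4 counts. Its type is not given here and it was not counted as coding, so the place of Setd4 in this list is unsure. Over members the median share on coding transcripts was 97.5%, beside 99.4% for detected protein-coding genes. Transcript types came from GENCODE M21, in which 252 of the 255 member transcripts were found, 230 of them with the same length as in the tables.

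**Figure D3:**
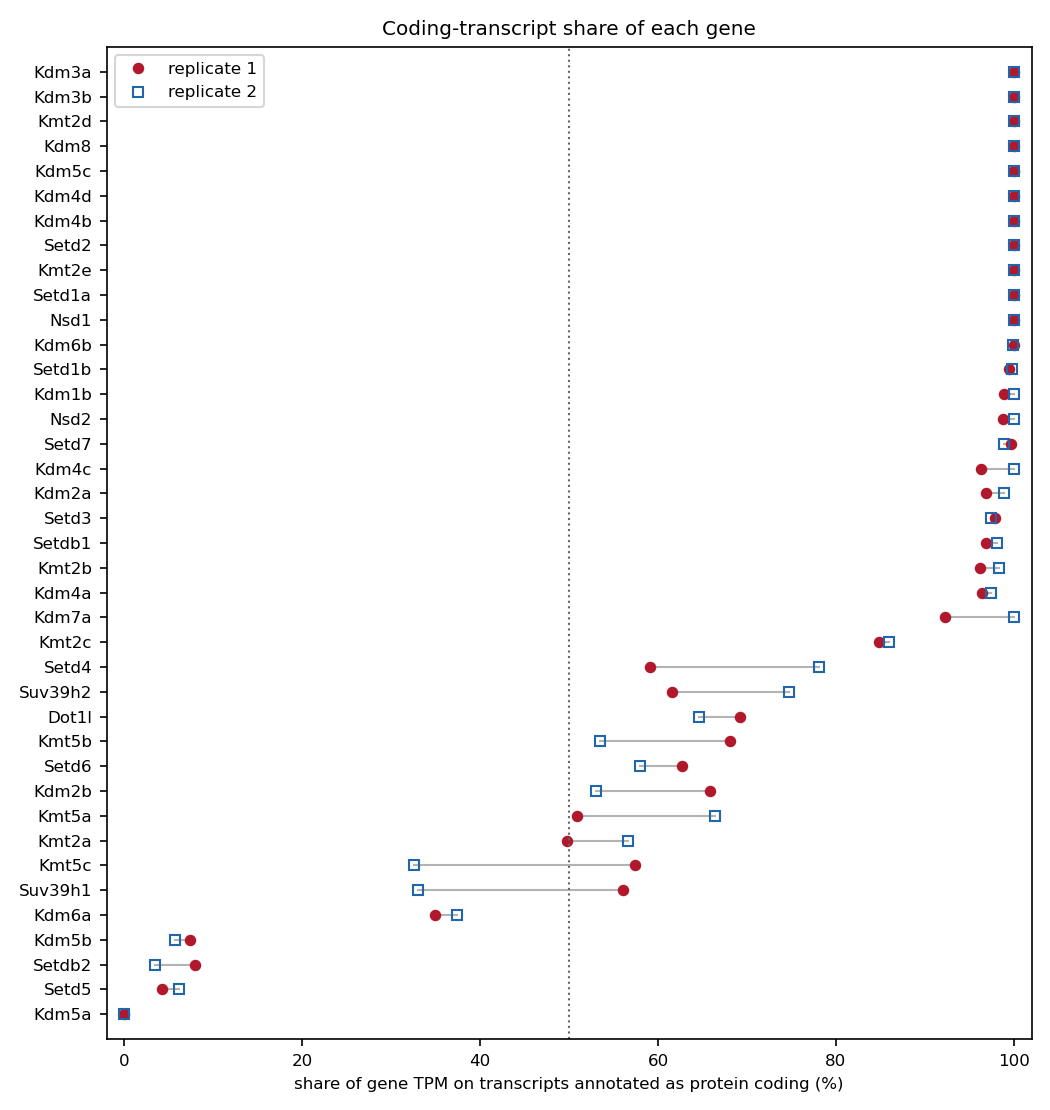
Share of gene TPM on transcripts annotated as protein coding (%) for the 39 members, ordered by the mean of the libraries, with filled circles for replicate 1 and open squares for replicate 2. The dotted line is 50%, and Kdm5a, Kdm5b, Kdm6a, Setd5 and Setdb2 lie left of it in both libraries.

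In the demethylases Kdm5a, Kdm5b and Kdm6a, transcripts with a retained intron that stop short of the gene's 3' end led. Kdm5a-208 (1402 bases, 3 exons) held 90.2% and 88.3% of Kdm5a TPM in replicates 1 and 2, begins 8 bases from the gene's 5' end and stops 74966 bases short of its 3' end. By counts it held 59.8% and 61.2%. Kdm5a-201, the coding transcript in M21, had 0 TPM, but a transcript of 10969 bases that M21 lacks, and whose type is therefore not given here, held 6.18% and 4.35% of TPM and 35.6% and 25.9% of counts. Kdm5b-202 held 92.5% and 94.3% of Kdm5b TPM, which left 3.17 and 3.97 TPM on coding transcripts. Kdm6a-203 held 64.7% and 62.7% of Kdm6a TPM, and coding transcripts had 3.80 and 5.74 TPM. In each of these genes the same transcript led both libraries.

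The points where retained-intron transcripts of Kdm5a, Kdm6a and Suv39h1 run on into an intron are printed because they show what tells the transcripts apart. Kdm5b-202 is not among them, since it first differs from the coding transcript Kdm5b-203 at a splice site. It joins the same exon at base 134593338 of chromosome 1 in place of 134593329. Its last exon then also runs on, to 46620 bases from the gene's 5' end, where that exon of Kdm5b-203 ends at 45704. Each line runs through the last 15 shared bases of the exon, in lower case, into the next 15 bases of the named transcript, in capitals. Sequences are from GENCODE M21 transcripts on GRCm38. The last shared base is 120369054 on chromosome 6 (plus strand) for Kdm5a, 18257965 on chromosome X (plus strand) for Kdm6a and 8063911 on chromosome X (minus strand) for Suv39h1.
Kdm5a-208: tatgctttaagcaagGTGAGGCCAAGACTT
Kdm5a-201: tatgctttaagcaagATTGTTGCCAGCAAA
Kdm6a-203: acacctagtatttatGTGAGTCTGAATTAG
Kdm6a-201: acacctagtatttatTTGGAAAATAAACGT
Suv39h1-205: tttgtcaaccatagtGTGGGTGCCTCCAGC
Suv39h1-202: tttgtcaaccatagtTGTGATCCCAACCTG
In these retained-intron transcripts the capitals are intron bases and open with GT, the usual start of an intron. In the coding transcripts they are the next exon.

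Setd5 and Setdb2 were led by short non-coding transcripts from the gene's 5' end. Setd5-205 (811 bases) held 58.0% and 63.2% of Setd5 TPM in replicates 1 and 2, and Setd5-206 (839 bases) held 36.1% and 25.4%. Coding transcripts of Setd5 had 6.86 and 6.96 TPM, so the gene's place among the 7 members above 100 TPM rested on the short forms. By counts the coding share of Setd5 was 29.1% and 36.4%, against 4.17% and 6.12% by TPM. Setdb2-204 (410 bases) held 91.8% and 96.0% of Setdb2 TPM but 53.3% and 71.9% of its counts, and coding transcripts had 1.22 and 0.56 TPM. Every base of Setdb2-204 also lies in exons of a transcript with nearly the whole Setdb2 coding sequence. Reads that cross no splice junction cannot tell them apart, so their shares rest on how such reads were divided.

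In Kmt5c, Suv39h1 and Kmt2a the coding share lay under 50% in 1 library and above it in the other. Setd4 (59.1% and 78.1% in replicates 1 and 2), Kmt5a (50.9% and 66.4%) and Kmt5b (68.0% and 53.5%) stayed above 50%. Their shares nevertheless differed more between the libraries than that of Kmt2a. For Kmt5c the coding share was 57.4% in replicate 1 and 32.6% in replicate 2. The coding Kmt5c-203 led replicate 1 with 43.7% (22.7% in replicate 2), and Kmt5c-212, annotated for nonsense-mediated decay, held 23.0% in replicate 1 and led replicate 2 with 52.8%. Every base of Kmt5c-212 also lies in exons of Kmt5c-203, so reads that cross no splice junction cannot tell them apart. Their shares therefore rest on how such reads were divided. Coding transcripts of Kmt5c nevertheless had 692 and 653 TPM, close between the libraries, and on them Kmt5c stayed above the gene TPM of every other member. Suv39h1 had a coding share of 56.1% and 33.0%, with Suv39h1-205 at 30.5% and 55.5%. Kmt2a had 49.7% and 56.6%, with the decay-annotated Kmt2a-205 at 50.1% and 42.9% by TPM but 19.8% and 22.6% by counts.

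By TPM the leading transcript differed between the libraries in 6 of 34 detected members with more than 1 transcript, 17.6%, beside 16.5% of such protein-coding genes. Besides Kmt5c these were Dot1l, Kdm2a, Kdm5c, Kmt5a and Setd6. By counts the same transcript led both libraries in each of these other than Kmt5c, namely Dot1l-201, Kdm2a-202, Kdm5c-203, Kmt5a-201 and Setd6-201, while the leader by counts differed in Kmt5c, Kmt2c, Kmt5b and Setd4. Kdm2a-202, with the full coding sequence, held 93.2% in replicate 1 and 46.4% in replicate 2, where Kdm2a-208 (1128 bases) held 52.1%. The level of Kdm2a-202 itself was 15.02 and 15.64 TPM, so the higher Kdm2a TPM of replicate 2 lay on the short form. Kmt5a-203, with a retained intron and 804 bases, led replicate 1 at 47.5%, and the coding Kmt5a-201 led replicate 2 at 34.2%. Kdm5c-203 led replicate 1 at 61.2% and the short Kdm5c-205 led replicate 2 at 41.4%, though by counts Kdm5c-205 held 5.23% and 6.89%. Dot1l was led by Dot1l-206 at 33.8% in replicate 1 and by Dot1l-205 at 31.7% in replicate 2, and Setd6 by Setd6-202 at 37.0% in replicate 1 and by Setd6-201 at 48.3% in replicate 2. Kmt5b and Kdm4b kept 1 leading transcript by TPM in both libraries that held under 50%, Kmt5b-211 (retained intron) with 32.0% and 46.5% and Kdm4b-201 with 45.6% and 38.5%.

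Kdm2b signal lay almost wholly on transcripts of the gene's 3' part. Transcripts that begin more than 80000 bases downstream of the gene's 5' end held 90.7% and 85.8% of Kdm2b TPM in replicates 1 and 2, and 94.0% and 96.0% of its counts. Those that begin within 2000 bases of the 5' end held 3.72% and 2.28% of TPM. Most of the downstream signal was Kdm2b-201, with 52.2 and 45.0 TPM (58.3% and 48.5%), which starts 89468 bases downstream and has 59.3% of the longest coding sequence. The retained-intron transcript Kdm2b-212 held another 18.2% and 37.0%, and the retained-intron Kdm2b-209 14.2% and 0.237%. They are annotated from 108738 and 107590 bases downstream, past the start of Kdm2b-201, so their signal is not tied to that start. Transcripts with at least 90% of the longest coding sequence held 2.13% in replicate 1 and were listed at 0 in replicate 2. The long form of Kdm2b carries the JmjC domain, and a short form without that domain is known. Proteins were not measured.

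RefSeq windows of both Kdm2b starts are shown because Kdm2b-201 and the transcripts that begin near the gene's 5' end differed in level. The downstream window (chr5:122900301-122900600, minus strand, GRCm38.p6) has its start 5 bases from that of Kdm2b-201, and the upstream one (chr5:122989050-122989349, minus strand) 7 bases from that of Kdm2b-206. Capitals mark CCAAT in the downstream window and CACCC in the upstream window, on either strand.
Kdm2b downstream start: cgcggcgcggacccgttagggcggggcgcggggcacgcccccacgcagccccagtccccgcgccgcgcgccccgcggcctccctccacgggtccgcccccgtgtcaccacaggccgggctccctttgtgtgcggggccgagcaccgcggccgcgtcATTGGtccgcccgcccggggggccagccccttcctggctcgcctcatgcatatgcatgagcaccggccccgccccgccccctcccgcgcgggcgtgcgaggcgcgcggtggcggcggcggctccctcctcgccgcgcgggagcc
Kdm2b upstream start: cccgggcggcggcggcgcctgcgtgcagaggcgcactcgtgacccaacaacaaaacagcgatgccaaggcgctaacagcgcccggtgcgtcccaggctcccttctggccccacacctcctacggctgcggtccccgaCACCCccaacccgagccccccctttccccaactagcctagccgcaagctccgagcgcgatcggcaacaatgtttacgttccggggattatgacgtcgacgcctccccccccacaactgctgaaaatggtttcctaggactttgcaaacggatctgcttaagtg
The downstream window had 49 CpG dinucleotides and 81.7% GC, and the upstream window 28 and 63.7%. Neither window held TATAAA or either form of the GATA motif.

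**Figure D4:**
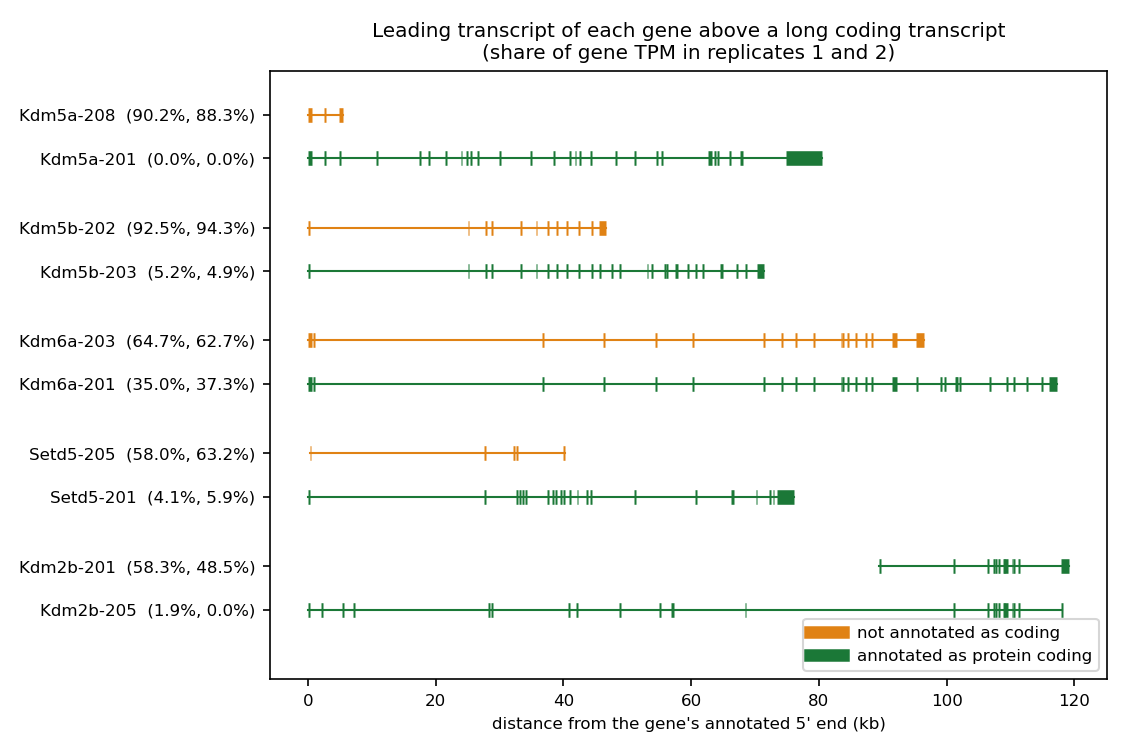
Exons (boxes, short ones widened to 0.3 kb) of the leading transcript of Kdm5a, Kdm5b, Kdm6a, Setd5 and Kdm2b, each above a long coding transcript, against distance from the gene's annotated 5' end (kb), with the share of gene TPM in replicates 1 and 2. Kdm5a-208, at 90.2% and 88.3%, ends near the gene's start, and Kdm2b-201 begins near the gene's other end.

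Counted by transcripts with at least 90% of the longest coding sequence, 17 members had under 50% of TPM in at least 1 library, 43.6% of them beside 37.2% of detected protein-coding genes. Summed over coding transcripts, 35 members reached 1 TPM in each library, and over transcripts with nearly the whole coding sequence 31 did. The median member level was 9.41 TPM on coding transcripts, against 15.9 for whole genes.

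The libraries were compared gene by gene with an exact two-sided binomial test on counts, adjusted over 11285 genes by Benjamini-Hochberg. The test sets one library against the other and no conditions, and its error is that of counting alone. With calls made below an adjusted p of 0.05 and from a fold of 2 upward, 11.1% of all genes tested were called, 8.53% as higher in replicate 1 and 2.58% as higher in replicate 2. Of 39 members 1 was called, which is 2.56%, below that background. That member was Kdm4c, higher in replicate 1, with 207 and 51 counts, a log2 ratio (replicate 1 over replicate 2) of 1.40 and an adjusted p of 4.33e-11 by the exact binomial test. Under the spread of the pair itself (edgeR's exact test, coefficient of variation 0.288) 0 members were called, with an adjusted p of 0.664 for Kdm4c. In that test 104 of all genes tested, 0.922%, were called, and Kdm4c was the 1 member with an unadjusted p under 0.05. Its spread was estimated from the same 2 libraries and so already holds the difference under test. It therefore cannot decide whether Kdm4c differs.

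With no fold threshold 32 of 39 members passed, 82.1% beside 67.5% of all genes tested. The authors' TPM intervals did not overlap for 25 members, 64.1% beside 56.4%. The signed log2 ratio (replicate 1 over replicate 2) had a median of -0.08 over members, 0.03 over all genes tested and near 0 over detected protein-coding genes. It ran from -0.75 for Kdm5b to 1.40 for Kdm4c. By counts 18 members were higher in replicate 1 and 21 in replicate 2. Of 8 genes grouped as H3K4 methyltransferases 7 were higher in replicate 2, with a median of -0.25, and only Setd7 was higher in replicate 1, at 0.27. When library totals replace TMM scaling all ratios move up by 0.20, and Kmt2c and Kmt2e then fall on the other side of 0. Of 4 H3K9 methyltransferases 3 were higher in replicate 1, led by Suv39h1 at 0.83, and 2 of 4 were by TPM, where Setdb2 stood at -0.11.

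**Figure D5:**
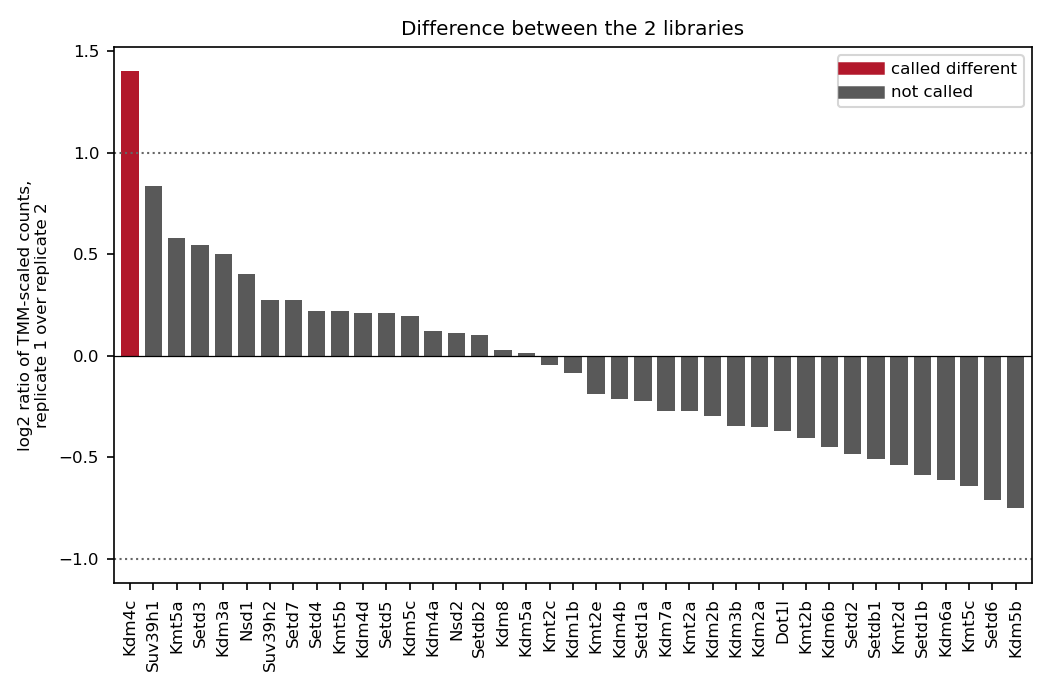
Log2 ratio of TMM-scaled counts, replicate 1 over replicate 2, for the 39 members in falling order, with dotted lines at a fold of 2 in either direction. Kdm4c, at 1.40, is the member called different, and Kdm5b is lowest at -0.75.

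GC content and transcript length both moved with that ratio. Across the 39 members Pearson's r of the log2 ratio with the GC percent of the longest coding transcript was -0.37 and Spearman's rho -0.34, given as a description over genes that share both libraries. Spearman's rho of the ratio with the length of the same transcript was -0.33. The longest coding transcript was not always an expressed one, as Kdm5a-201, Nsd2-205 and Setd4-201 had 0 TPM in both libraries. These correlations were not computed over all genes. The 20 members at or above the median GC of 49.7% had a median log2 ratio of -0.25, and the 19 below it 0.01. The part of either in the differences between the libraries was not tested.

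Partner genes, which sit in complexes with these enzymes or carry related domains, were mostly detected. Detection was reached by 44 of 49 matched partner genes, and their median TPM was 24.0. All 14 COMPASS and MLL partners were detected, from 248 ± 61.2 TPM (SD, n = 2) for Hcfc1, a host cell factor bound by SET1 and MLL complexes, to 4.29 ± 1.35 for Bod1l. All 7 DOT1L and elongation partners were detected, from 212 ± 0.0636 for the histone chaperone Nap1l1 to 6.08 ± 0.290 for Aff4.

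Of 10 H3K9 partners 9 were detected. Ehmt2 (G9a), an H3K9 methyltransferase that the naming rule does not take in, led them with 282 and 416 TPM, a mean of 349 ± 94.2 (SD, n = 2). It stood above Setdb1, the highest H3K9 member, in both libraries. Morc2a was not detected, at 0.44 and 0.79 TPM. Other SET and PR domain proteins were lower, with 5 of 8 detected, from 59.1 ± 28.4 TPM for Nsd3, a relative of Nsd1 and Nsd2, to 2.56 ± 0.247 for Smyd3. The undetected ones were Smyd4 (0.68 and 0.44 TPM), Setmar (0.23 and 0.13) and Smyd2 (0.01 and 0). Of 10 other JmjC proteins 9 were detected, from 98.6 ± 24.7 TPM for Riox1, a ribosomal oxygenase, to 4.35 ± 0.608 for Riox2, and Hr was not, at 0.08 and 0.66 TPM.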

How the data were processed

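Values came from gene and transcript tables deposited for 2 polyA libraries of 1 group. The authors deposited expected counts and posterior mean counts, which need not be whole, and TPM and posterior mean TPM, scaled by effective length. The interval bounds beside the authors' TPM are their own signal range for each gene. The deposited percent column for transcripts was not used, and shares were computed anew from transcript TPM. Per the notes deposited with the files, the build was mm10 with GENCODE M4. Neither the aligner, the quantifier nor the use of strand is given in the sources used here.

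Of 43346 gene rows 42462 matched GENCODE M21. The other Ensembl rows took 0.248% of counts in replicate 1 and 0.257% in replicate 2, and 26345 rows without a gene identifier held almost none. Members and lists were chosen with earlier results of these data known. Every member is named, in 5 roles. Values of both libraries are given for the highest and lowest of each role, for members called or not detected, for paralog pairs and for the transcripts that set them apart. Kdm2b starts and the 90% limit on coding sequence were added after its values were seen.

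Expected counts were rounded and scaled by TMM (edgeR 4.0.16, R 4.3.3). Genes with at least 10 counts over both libraries were tested with an exact binomial test (Python 3.11.15, scipy 1.17.1), with a prior count of 0.5 in log2 ratios. On simulated counts over 11283 genes, 100 of 100 genes set to a 3-fold difference and 100 of 100 set to 4-fold were recovered, and 1 of 11083 unchanged genes was called. The simulation held counting noise only. Errors are SD over 2 libraries. Alternatives covered scalings (library totals, DESeq2 1.42.0), filters, pseudocounts, posterior means and each library alone. Whsc1l1 is an older name of Nsd3 and was not matched.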

Additional observations from a re-analysis of the deposited data

How the results depend on the processing

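The number of members detected (37) lay between 32 and 38 with other TPM thresholds, posterior mean TPM, either library alone and coding transcripts alone, and was 31 on transcripts with nearly the whole coding sequence. The number of partner genes detected (44) lay between 34 and 44 under the same alternatives, those on transcript type aside. The median member TPM of 15.9 was 15.8 and 16.5 in replicates 1 and 2 alone, 17.1 after rescaling over nuclear protein-coding genes, and 9.41 on coding transcripts alone, an alternative chosen after seeing the data. Of members called different between the libraries (1), there were 2 with library totals (Kdm4c and Suv39h1), 32 with no fold threshold, 7 at a fold of at least 1.5 and 0 by edgeR's exact test with the dispersion of the pair, where 1 member had an unadjusted p under 0.05. Other scalings, filters and posterior mean counts left it at 1. The median log2 ratio of members, -0.08, became 0.11 with library totals, under which the median over all genes tested was 0.23 in place of 0.03.

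Members with under 50% of TPM on coding transcripts numbered 8, and 6 and 7 in replicates 1 and 2 alone. Counted by transcripts with at least 90% of the longest coding sequence, also chosen after seeing the data, they numbered 17. Log2 ratios near 0 changed sign for Kdm1b (0.11 with library totals, 0.026 from TPM), Kmt2c (0.15) and Kmt2e (0.0094) with library totals, Kdm5a (-0.00277 with DESeq2 size factors), and Kmt5b (-0.041), Setd4 (-0.23) and Setdb2 (-0.11) from TPM; the cause was not tested. Suv39h1 passed the threshold with library totals (1.03). Shares by expected counts moved beyond the spread of the libraries for 17 members' coding share and 15 members' leading transcript. No paired analysis was possible because the libraries form 1 group. Depth limits Kdm4d and Setd4, which had under 100 counts in each library, and all limits cover counting error only.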
